A study of Homo sapiens with 14 samples.

Results

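The genes described here are the splicing factors of the HNRNP and SRSF families with their closest partners, measured in LNCaP-abl and LNCaP prostate cancer cells with and without dilazep. They were chosen by gene symbol alone: every probe whose symbol on the array platform starts with HNRNP, or with SRSF and a digit, and every probe for TRA2A, TRA2B, PTBP1, PTBP2, ESRP1, ESRP2, SRPK1, SRPK2 and CLK1 to CLK4. Symbols were at hand only for probes in the processed values deposited by the authors, so the rule could search 16501 of the 47323 distinct probes. It found 85. They stand for 50 of the 11983 genes tested: 24 HNRNP protein genes, 4 HNRNP pseudogenes, 14 SRSF and TRA2 genes, 3 PTBP and ESRP genes (PTBP1, PTBP2 and ESRP1) and 5 kinases (SRPK1, SRPK2, CLK1, CLK3 and CLK4). All 85 probes passed the filter on low signals, as did 15931 of the 16501 probes. ESRP2 and CLK2 had no named probe here.

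LNCaP is an androgen-responsive line from a lymph node metastasis of prostate carcinoma, and LNCaP-abl is a subline of it that grows under long-term androgen deprivation. The dilazep groups were LNCaP-abl and LNCaP cells given 50 µM dilazep, a vasodilator that blocks nucleoside uptake, for 48 h, with 3 arrays each. The control groups were the same lines given DMSO or H2O, with 2 arrays per vehicle and line, so that dilazep was set against 4 control arrays in each line, the vehicles with equal weight. LNCaP-abl was kept in phenol-red-free medium with charcoal-stripped serum and LNCaP in whole fetal bovine serum, so line and medium cannot be told apart. The series as a whole asks about GATA2, a transcription factor of prostate cells, as a target of dilazep. LNCaP-abl is 1 derived subline, and no label tells whether arrays of a group come from different cultures. The p-values thus cover the spread between arrays alone, and that spread may be technical. For the control arrays the treatment label speaks of bufalin, a different compound, and no label says in which vehicle dilazep was given. If the controls came from a separate experiment, that difference and dilazep cannot be told apart.

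Pre-mRNA splicing removes introns with a core machinery of small nuclear ribonucleoproteins, and the choice of exons is tuned by proteins that bind nearby RNA. SR proteins (the SRSF genes, with TRA2A and TRA2B as relatives) bind exonic enhancers and mostly promote exon inclusion, while many heterogeneous nuclear ribonucleoproteins (the HNRNP genes) and the PTB proteins bind silencers and often promote skipping. SRPK and CLK kinases phosphorylate the serine-arginine tails of SR proteins and so set where they reside in the cell. Many of these factors control their own transcripts through exons or introns that lead to decay, so that a gene can make several RNAs that a short array probe reads separately.

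Upstream sequence was set beside the genes because many of them moved together. The 250 bases before the annotated start were available for 41 of the 50 genes, from RefSeq on GRCh38.p14, and were searched on both strands for CACGTG (the E-box of MYC-type factors), for AGATAA or TGATAA (a core that GATA factors prefer) and for CCAAT (the box of NF-Y). None of these patterns contains another. CACGTG stood in 7 of the 41 windows (17.1%), against 6.5% of all 27305 windows of that length, and CCAAT in 19 (46.3%), against 33.0%. The GATA pattern stood in 1 of 41 (2.4%), against 14.9%. Of the 13 windows of genes that were lower with dilazep in both lines, 1 held CACGTG, 0 the GATA pattern and 6 CCAAT. Such a match is a description, not a site or a cause. HNRNPA1 had no window, and the 27305 windows were matched neither to the genes tested here nor for base content. The 4 windows below are shown because HNRNPD and HNRNPDL are close relatives on the same chromosome whose changes differed, SRSF1 carried the only GATA pattern, and HNRNPA2B1 was lower in both lines. Capitals mark the searched patterns.
HNRNPD, chr4:82373992-82374241, minus strand: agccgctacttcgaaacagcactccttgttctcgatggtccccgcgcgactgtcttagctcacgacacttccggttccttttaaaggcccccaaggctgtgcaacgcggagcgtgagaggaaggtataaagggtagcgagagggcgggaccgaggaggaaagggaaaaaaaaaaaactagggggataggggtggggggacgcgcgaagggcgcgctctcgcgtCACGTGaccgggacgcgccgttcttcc
HNRNPDL, chr4:82430226-82430475, minus strand: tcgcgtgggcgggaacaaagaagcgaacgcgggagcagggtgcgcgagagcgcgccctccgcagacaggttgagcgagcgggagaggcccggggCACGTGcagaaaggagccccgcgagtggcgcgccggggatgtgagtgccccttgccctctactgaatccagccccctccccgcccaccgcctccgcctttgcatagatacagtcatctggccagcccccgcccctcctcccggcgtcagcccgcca
SRSF1, chr17:58007247-58007496, minus strand: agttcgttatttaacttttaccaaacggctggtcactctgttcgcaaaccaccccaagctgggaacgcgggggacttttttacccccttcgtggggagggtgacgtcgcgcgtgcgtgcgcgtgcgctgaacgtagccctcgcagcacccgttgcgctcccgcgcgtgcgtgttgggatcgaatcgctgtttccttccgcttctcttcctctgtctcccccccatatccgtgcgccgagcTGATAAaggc
HNRNPA2B1, chr7:26200747-26200996, minus strand: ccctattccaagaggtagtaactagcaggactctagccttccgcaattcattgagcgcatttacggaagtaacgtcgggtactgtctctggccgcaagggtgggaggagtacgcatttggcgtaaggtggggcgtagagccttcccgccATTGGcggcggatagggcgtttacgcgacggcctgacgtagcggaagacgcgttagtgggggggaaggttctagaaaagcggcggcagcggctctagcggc

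Of all 14 arrays, each had 17925 to 19856 probes detected (detection p under 0.05) and a median raw signal of 144.6 to 154.6. Of 10 luminal prostate markers, 8 had a named probe and 7 of these, among them KRT8, KRT18, HOXB13 and TMPRSS2, were detected on all 14 arrays. KLK3, which encodes prostate-specific antigen, was detected on 11, and on 0 of the 3 LNCaP-abl dilazep arrays. Of the markers of other cell types, VIM and CD68 were detected on all 14 arrays, VWF on 12, COL1A1 on 11 and PECAM1 on 0. Arrays of a group correlated at 0.987 to 0.992, and arrays of different groups at up to 0.993. DMSO and H2O controls differed for 0 of the 50 genes and 0 of 11983 genes in limma's test after Benjamini-Hochberg adjustment, and for 1 and 532 of them at an unadjusted p under 0.05.

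Most splicing factor genes that changed with dilazep were lower, in both lines. In LNCaP-abl, 32 of 50 fell and 5 rose, where 23.3% of all genes tested fell and 27.2% rose (50.5% called in all). In LNCaP, 21 fell and 5 rose, where 19.7% of all genes fell and 24.2% rose (43.9% called). A gene is called here at an adjusted p under 0.05 in limma's moderated test over all 11983 genes. The median change over the 50 genes was -0.48 on the log2 scale in LNCaP-abl, against 0.04 over all genes, and -0.21 in LNCaP, against 0.04. The dilazep arrays did not overlap the control arrays for 38 of the 50 genes in LNCaP-abl (53.0% of all genes) and for 29 in LNCaP (47.0%). In RNA from whole cultures, fewer cells that express a gene and less RNA per cell cannot be told apart.

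The call was shared by both lines for 20 genes: 18 were lower in both and 2, CLK3 and CLK4, were higher in both. In LNCaP-abl alone 17 were called, in LNCaP alone 6, in neither 7, and 0 were called in opposite directions. Of all 11983 genes, 1318 were lower in both lines and 1621 higher in both, 2719 were called in LNCaP-abl alone, 1931 in LNCaP alone, 4003 in neither and 391 in opposite directions. Both comparisons used limma, and each has its own controls.

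**Figure D1:**
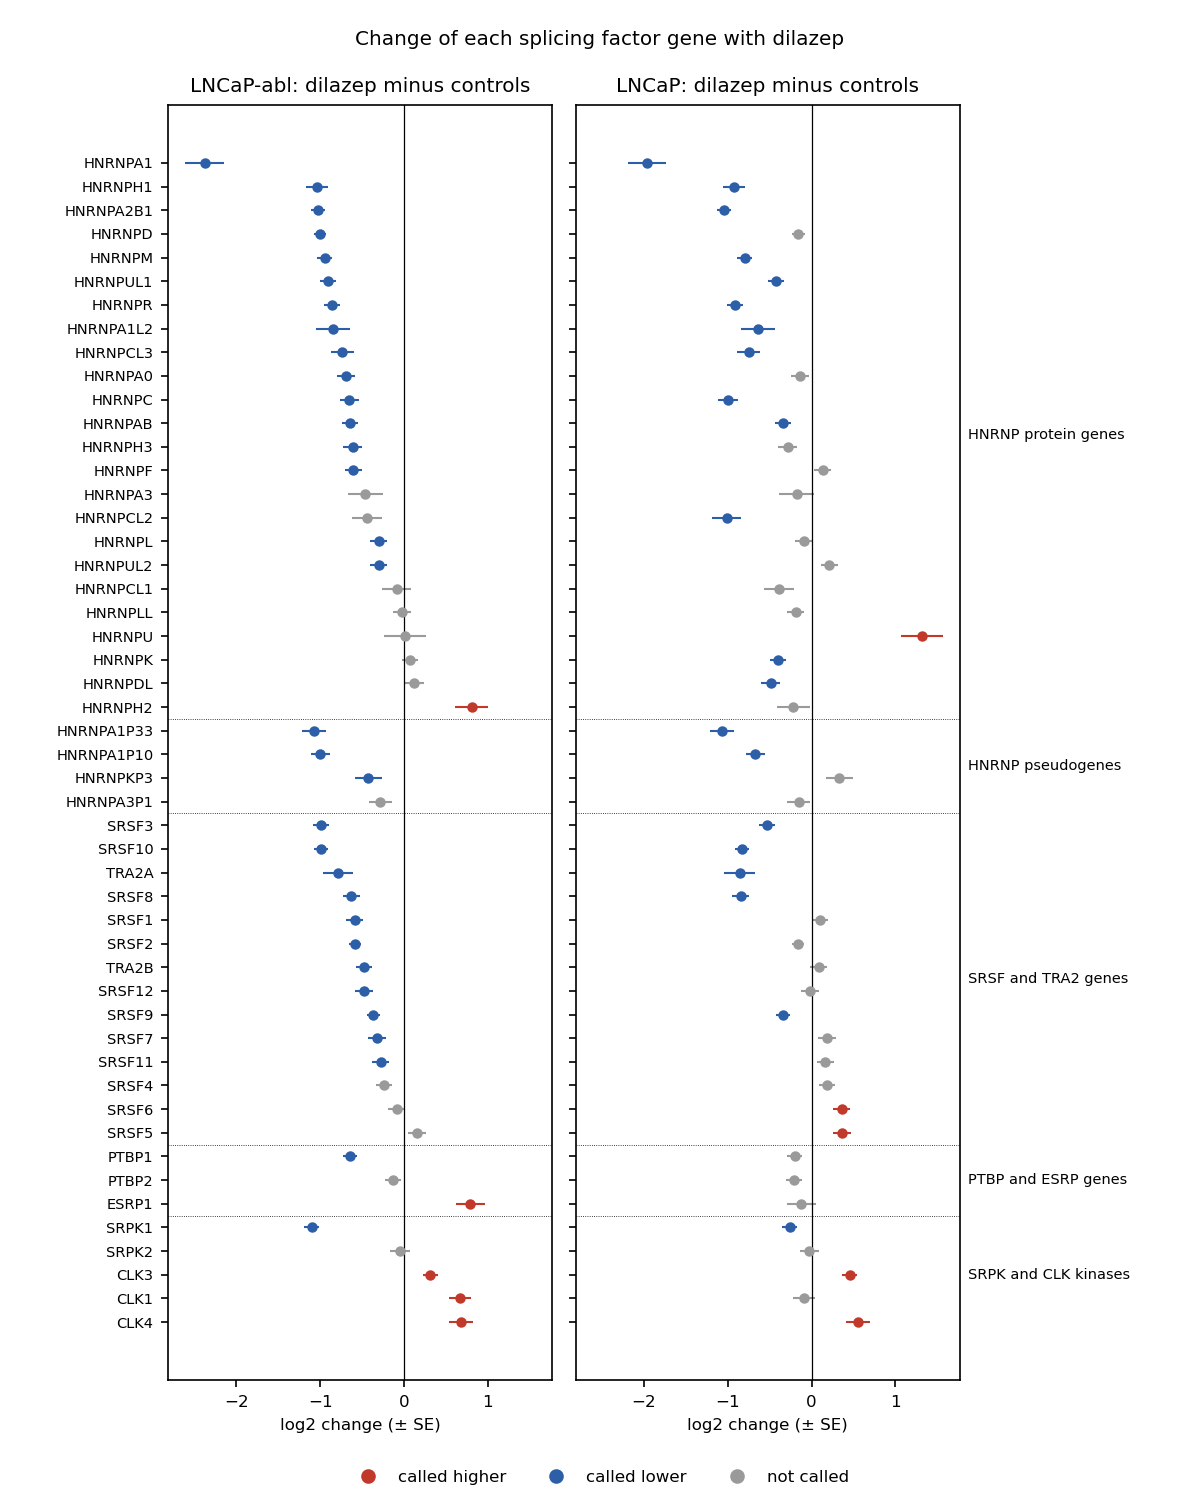
Log2 change with dilazep (x axis, dilazep minus controls, points, with standard errors as bars) of each of the 50 genes by role, in LNCaP-abl (left) and LNCaP (right). Blue points, called lower, number 32 in LNCaP-abl and 21 in LNCaP, and HNRNPA1 lies farthest to the left in both.

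Scaling bears on these levels. With arrays scaled to their medians in place of quantile normalization, the median over all genes became -0.08 in LNCaP-abl and 0.09 in LNCaP. Relative to that median, the 50 genes lay at -0.58 in LNCaP-abl and -0.21 in LNCaP, against -0.52 and -0.25 with quantile normalization. The share of all calls that were higher was 37.8% with median scaling and 53.9% with quantile normalization in LNCaP-abl.

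The HNRNP protein genes, whose products coat nascent transcripts, held the largest single fall. In LNCaP-abl 16 of 24 fell and 1 rose (median -0.63), where 23.3% of all genes fell and 27.2% rose (median 0.04). In LNCaP 13 fell and 1 rose (median -0.39), where 19.7% of all genes fell and 24.2% rose (median 0.04). HNRNPA1, the founding member of the A/B group and a widely acting repressor of exons, changed most. Its log2 level was 6.32, 5.97 and 6.23 on the LNCaP-abl dilazep arrays, against 9.06 and 8.26 with DMSO and 8.28 and 8.60 with H2O. In LNCaP it was 6.30, 6.22 and 5.65 with dilazep, against 7.67 and 8.40 with DMSO and 7.99 and 8.03 with H2O. All 6 dilazep arrays lay below all 8 control arrays. HNRNPA1 was thus 5.20-fold lower in LNCaP-abl (log2 change -2.38, SE 0.23, limma adjusted p = 3.5e-06) and 3.91-fold lower in LNCaP (-1.97, SE 0.23, adjusted p = 4.3e-05). With the processed values of the authors, whose scale compresses low signals, the changes were -1.02 and -0.73. The second HNRNPA1 probe also fell, by 1.44 in LNCaP-abl and by 1.07 in LNCaP. It was dimmer and detected on 11 of 14 arrays. With dilazep it read 4.99, 5.46 and 5.12 in LNCaP-abl and 5.36, 6.03 and 5.22 in LNCaP, so the size of its fall is uncertain. Both HNRNPA1 probes are listed against the same transcript, and whether all RNA of the gene fell as far was not tested. The probes of HNRNPA1P33 and HNRNPA1P10, which may read HNRNPA1 RNA, fell less, by 0.67 to 1.07. Their mean levels were 11.10 and 10.06, against 7.36 at the brighter HNRNPA1 probe.

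HNRNPA2B1, the partner of HNRNPA1 in the core hnRNP particle, read 13.18, 13.12 and 13.22 with dilazep in LNCaP-abl, against 14.25 and 14.18 with DMSO and 14.13 and 14.22 with H2O. In LNCaP HNRNPA2B1 read 13.08, 13.07 and 12.88 with dilazep, against 14.06 and 14.23 with DMSO and 13.97 on both H2O arrays. The groups did not overlap in either line, and the change was -1.02 (SE 0.08, limma adjusted p = 1.0e-06) in LNCaP-abl and -1.05 (SE 0.08, adjusted p = 2.9e-06) in LNCaP. This is the brightest of its 4 probes. The other 3 gave -0.08 to 0.18 in LNCaP-abl, with 0 called, and -0.35 to -0.13 in LNCaP, with 1 called lower, so the fall of HNRNPA2B1 rests on its brightest probe. Of the others, 1 is listed against the same transcript, and it was not called in either line.

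HNRNPM, which binds GU-rich RNA and can promote skipping, read 11.74, 11.81 and 11.68 with dilazep in LNCaP-abl, against 12.79 and 12.61 with DMSO and 12.65 and 12.70 with H2O. In LNCaP HNRNPM read 11.68, 11.51 and 11.69 with dilazep, against 12.45 and 12.41 with DMSO and 12.49 and 12.37 with H2O. HNRNPM fell by 0.95 in LNCaP-abl (SE 0.09, limma adjusted p = 2.0e-06) and by 0.80 in LNCaP (SE 0.09, adjusted p = 2.3e-05), with no overlap of groups in either. Of its other 3 probes, 2 were lower in both lines and the dimmest was called in neither. HNRNPR, a relative of the RNA-binding protein SYNCRIP, read 10.84, 11.01 and 10.80 with dilazep in LNCaP-abl, against 11.93 and 11.73 with DMSO and 11.69 and 11.63 with H2O. In LNCaP HNRNPR read 11.11, 10.88 and 10.78 with dilazep, against 11.86 and 11.82 with DMSO and 11.80 and 11.87 with H2O. HNRNPR was lower on every dilazep array than on every control array of the same line, and it fell by 0.86 in LNCaP-abl (SE 0.10, adjusted p = 1.8e-05) and by 0.91 in LNCaP (SE 0.10, adjusted p = 2.7e-05). Of the other 2 HNRNPR probes, 1 was lower in both lines and the dimmer was called in neither.

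HNRNPC, which binds uridine tracts and keeps cryptic exons from being used, read 10.87, 10.84 and 10.71 with dilazep in LNCaP-abl, against 11.60 and 11.18 with DMSO and 11.48 and 11.56 with H2O. In LNCaP HNRNPC read 10.61, 10.67 and 10.47 with dilazep, against 11.64 and 11.60 with DMSO and 11.40 and 11.67 with H2O. HNRNPC fell in both lines, by 0.65 in LNCaP-abl (SE 0.11, limma adjusted p = 4.5e-04) and by 1.00 in LNCaP (SE 0.11, adjusted p = 3.8e-05), and the difference between the lines was not called (0.35, SE 0.16, adjusted p = 0.119). HNRNPUL1, an HNRNPU-like protein, read 9.07, 8.97 and 9.00 with dilazep in LNCaP-abl, against 9.78 and 9.91 with DMSO and 9.90 and 10.07 with H2O. It fell by 0.90 there (SE 0.10, adjusted p = 8.8e-06) and by 0.42 in LNCaP (SE 0.10, adjusted p = 0.0040). The LNCaP fall of HNRNPUL1 rests on this 1 of its 4 probes, since the other 3 gave -0.30 to -0.03 there with 0 called, and 2 of these 3 were lower in LNCaP-abl. HNRNPH1, which binds G tracts, fell by 1.04 in LNCaP-abl and by 0.93 in LNCaP. Of its 3 probes, all were lower in LNCaP-abl and 2 in LNCaP, where the other changed by 0.12 (adjusted p = 0.480 over all probes) and its response difference was called (-0.81, adjusted p = 0.00530). HNRNPAB, HNRNPA1L2 and HNRNPCL3 also fell in both lines. No probe sequences were at hand, so whether the probes of HNRNPA1L2 and the HNRNPCL genes also read HNRNPA1 or HNRNPC RNA was not tested. In the counts above each of them is a separate gene.

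The 4 HNRNP pseudogenes differ little from their parent genes in sequence, so their probes may read the parents' RNA and their values are uncertain. HNRNPA1P33 read 9.89, 9.89 and 10.17 with dilazep in LNCaP-abl, against 11.09 and 11.02 with DMSO and 11.36 and 10.77 with H2O. In LNCaP HNRNPA1P33 read 11.08, 11.02 and 10.85 with dilazep, against 12.22 and 11.90 with DMSO and 11.94 and 12.15 with H2O. It fell by 1.07 in both lines and HNRNPA1P10 by 1.00 in LNCaP-abl and 0.67 in LNCaP, both without overlap of groups. HNRNPKP3 fell in LNCaP-abl only just past the test (-0.42, adjusted p = 0.048), with arrays that overlap.

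**Figure D2:**
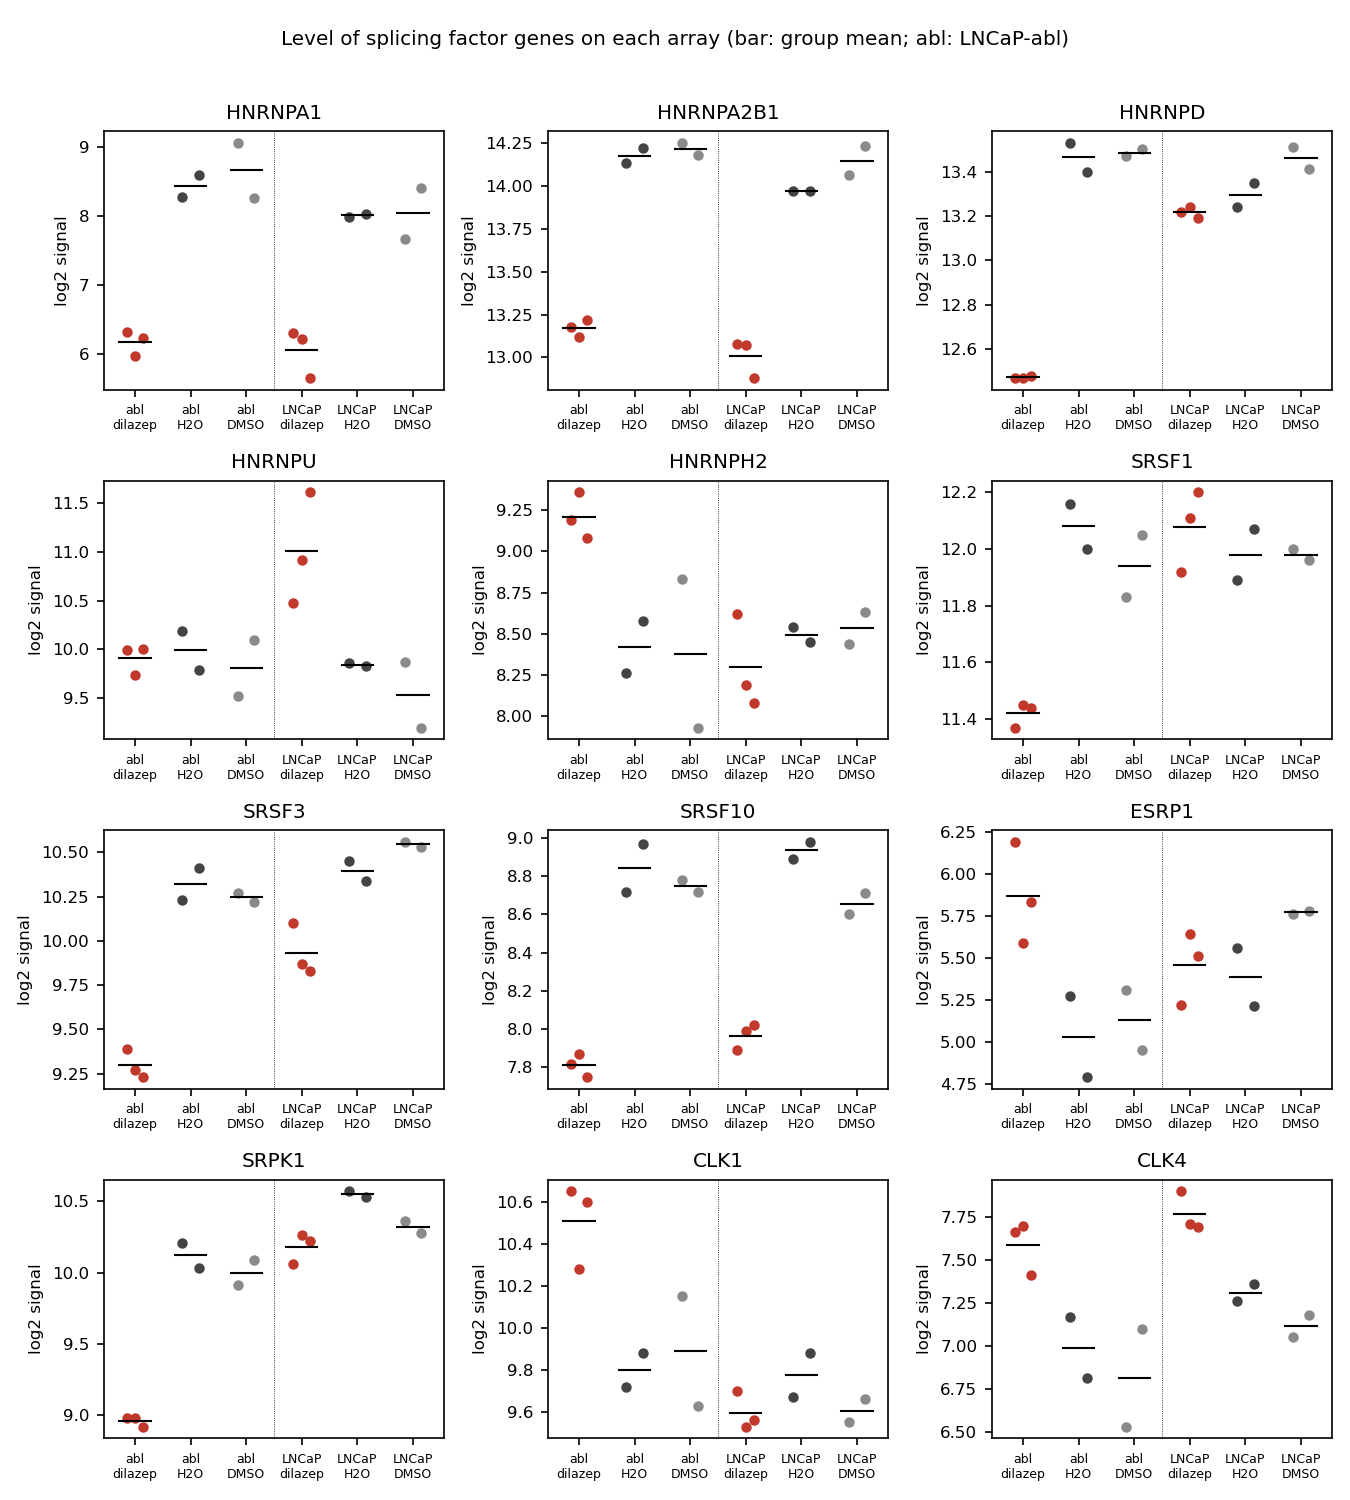
Normalized log2 level (y axis) of 12 splicing factor genes on each of the 14 arrays, 1 panel per gene, with dilazep arrays in red left of the H2O (black) and DMSO (grey) arrays of each line and a bar at each group mean. HNRNPA1 and HNRNPA2B1 are lower with dilazep in both lines, HNRNPD, SRSF1 and SRPK1 lie lower with dilazep in LNCaP-abl, with a response that differed from LNCaP, and HNRNPU is high on the 3 LNCaP dilazep arrays.

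More of the SRSF and TRA2 genes fell in LNCaP-abl than in LNCaP. In LNCaP-abl 11 of 14 fell and 0 rose (median -0.48), where 23.3% of all genes fell and 27.2% rose (50.5% called). In LNCaP 5 fell and 2 rose (median 0.03), where 19.7% of all genes fell and 24.2% rose (43.9% called). The response differed between the lines, in an interaction test, for 9 of the 14, each lower in LNCaP-abl. Over all genes 33.8% were called in that test, 17.9% of all genes as lower in LNCaP-abl and 15.9% as higher.

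SRSF1, the prototype SR protein and an oncogenic splicing factor in several tumours, read 11.37, 11.45 and 11.44 with dilazep in LNCaP-abl, against 11.83 and 12.05 with DMSO and 12.16 and 12.00 with H2O. In LNCaP SRSF1 read 11.92, 12.11 and 12.20 with dilazep, against 12.00 and 11.96 with DMSO and 11.89 and 12.07 with H2O. The arrays overlap in LNCaP and do not in LNCaP-abl. SRSF1 fell by 0.59 in LNCaP-abl (SE 0.10, limma adjusted p = 3.0e-04), its change in LNCaP was 0.10 (SE 0.10, adjusted p = 0.461), and the responses differed by -0.69 (SE 0.14, adjusted p = 0.00283).

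SRSF2, an SR protein of nuclear speckles, read 11.65, 11.60 and 11.65 with dilazep in LNCaP-abl, against 12.28 and 12.22 with DMSO and 12.16 and 12.20 with H2O. In LNCaP SRSF2 read 11.97, 12.05 and 11.98 with dilazep, against 12.12 and 12.18 with DMSO and 12.17 and 12.18 with H2O. The difference of responses was -0.42 (SE 0.10, limma adjusted p = 0.00763). TRA2B, which binds GAA-rich enhancers, read 10.94, 11.11 and 11.11 with dilazep in LNCaP-abl, against 11.55 and 11.44 with DMSO and 11.54 and 11.60 with H2O. In LNCaP TRA2B read 11.26, 11.54 and 11.30 with dilazep, against 11.22 and 11.44 with DMSO and 11.22 and 11.26 with H2O. Its arrays overlap in LNCaP alone, and its responses differed by -0.56 (SE 0.14, adjusted p = 0.00852). The others called lower in LNCaP-abl by this test were SRSF3, SRSF4, SRSF6, SRSF7, SRSF11 and SRSF12, with differences of -0.50 to -0.43.

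SRSF3, the smallest SR protein, read 9.39, 9.27 and 9.23 with dilazep in LNCaP-abl, against 10.27 and 10.22 with DMSO and 10.23 and 10.41 with H2O. In LNCaP SRSF3 read 10.10, 9.87 and 9.83 with dilazep, against 10.56 and 10.53 with DMSO and 10.45 and 10.34 with H2O. By this probe SRSF3 fell in both lines without overlap, by 0.99 in LNCaP-abl (SE 0.09, limma adjusted p = 2.8e-06) and by 0.53 in LNCaP (SE 0.09, adjusted p = 6.8e-04), and the responses differed by -0.46 (SE 0.13, adjusted p = 0.0187). With DMSO controls alone that difference was no longer called. The second SRSF3 probe fell in LNCaP-abl by 1.15 and was not called in LNCaP (-0.15, SE 0.14, adjusted p = 0.420 over all probes), where its arrays overlap, so the LNCaP fall holds at 1 of 2 probes.

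SRSF10, an SR-like protein that acts as a repressor when it is dephosphorylated, read 7.82, 7.87 and 7.75 with dilazep in LNCaP-abl, against 8.78 and 8.72 with DMSO and 8.72 and 8.97 with H2O. In LNCaP SRSF10 read 7.89, 7.99 and 8.02 with dilazep, against 8.60 and 8.71 with DMSO and 8.89 and 8.98 with H2O. SRSF10 fell by 0.99 in LNCaP-abl (SE 0.09, limma adjusted p = 1.7e-06) and by 0.83 in LNCaP (SE 0.09, adjusted p = 2.0e-05), with a difference of -0.16 that was not called (SE 0.12, adjusted p = 0.347). The second SRSF10 probe was lower in LNCaP (-1.02) and not called in LNCaP-abl (-0.26, adjusted p = 0.465 over all probes). SRSF8, a retrogene relative of SRSF2, read 11.25, 11.25 and 11.21 with dilazep in LNCaP-abl, against 12.00 and 11.85 with DMSO and 11.75 and 11.87 with H2O. In LNCaP SRSF8 read 10.48, 10.29 and 10.12 with dilazep, against 11.27 and 11.07 with DMSO and 11.17 and 11.05 with H2O. It fell by 0.63 in LNCaP-abl and by 0.84 in LNCaP. TRA2A fell by 0.79 in LNCaP-abl and by 0.86 in LNCaP, and SRSF9 by 0.37 in LNCaP-abl and by 0.34 in LNCaP.

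By their brightest probes, 2 SRSF genes rose, both in LNCaP. SRSF5 rose by 0.37 there (SE 0.11, limma adjusted p = 0.0154), and its change in LNCaP-abl was 0.16 (adjusted p = 0.247), a difference that was not called (-0.21, adjusted p = 0.317). The second SRSF5 probe gave the calls the other way round: it rose in LNCaP-abl (0.50, adjusted p = 0.0030 over all probes) and was not called in LNCaP (0.24, adjusted p = 0.118), so the line in which SRSF5 rose depends on the probe. SRSF6 rose by 0.36 in LNCaP (SE 0.10, adjusted p = 0.0120), its change in LNCaP-abl was -0.09 (adjusted p = 0.510), and the difference was called (-0.45, adjusted p = 0.0302). SRSF12 was detected on all 4 LNCaP-abl control arrays, on 0 of 3 LNCaP-abl dilazep arrays and on 0 of 7 LNCaP arrays. Its level was at least 1.26-fold lower with dilazep in LNCaP-abl, taking the weakest detected signal of each array as the bound (limma adjusted p = 0.00293), and this call was lost without background correction and with the authors' processed values. Its response difference rests on levels below detection in LNCaP.

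Among the PTB and ESRP genes, PTBP1 and ESRP1 moved in LNCaP-abl in opposite directions. PTBP1, the widely expressed repressor of neuronal and muscle exons, read 11.97, 11.97 and 11.82 with dilazep in LNCaP-abl, against 12.50 and 12.59 with DMSO and 12.51 and 12.66 with H2O. In LNCaP PTBP1 read 12.06, 12.22 and 12.15 with dilazep, against 12.42 and 12.45 with DMSO and 12.35 and 12.17 with H2O. PTBP1 fell by 0.64 in LNCaP-abl (SE 0.09, limma adjusted p = 6.3e-05), its change in LNCaP was -0.20 (SE 0.09, adjusted p = 0.083), and the responses differed by -0.44 (SE 0.12, adjusted p = 0.0167), a call lost with DMSO controls alone.

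PTBP2, its neuronal relative, read 8.90, 8.81 and 8.94 with dilazep in LNCaP-abl, against 8.91 and 9.14 with DMSO and 8.96 and 9.06 with H2O. In LNCaP PTBP2 read 8.68, 8.65 and 8.45 with dilazep, against 8.87 and 8.74 with DMSO and 8.71 and 8.90 with H2O. PTBP2 was not called in either line by this probe, while its second probe was lower in LNCaP (-0.42, SE 0.13, limma adjusted p = 0.0214 over all probes) and not called in LNCaP-abl (-0.11). ESRP1, which sets epithelial splice patterns, read 6.19, 5.59 and 5.83 with dilazep in LNCaP-abl, against 5.31 and 4.95 with DMSO and 5.27 and 4.79 with H2O. In LNCaP ESRP1 read 5.22, 5.64 and 5.51 with dilazep, against 5.76 and 5.78 with DMSO and 5.56 and 5.21 with H2O. ESRP1 was detected on all 3 LNCaP-abl dilazep arrays and on 0 of 4 LNCaP-abl control arrays, so it was at least 1.48-fold higher with dilazep there (limma adjusted p = 0.00240), while its LNCaP arrays overlap. With the authors' processed values its log2 change in LNCaP-abl was 0.15.

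The kinases of SR proteins did not move as a group: of 5, 3 rose and 1 fell in LNCaP-abl, and 2 rose and 1 fell in LNCaP. Over all genes 27.2% rose and 23.3% fell in LNCaP-abl, and 24.2% rose and 19.7% fell in LNCaP. SRPK1, which loads SR proteins for import into the nucleus, read 8.98, 8.98 and 8.92 with dilazep in LNCaP-abl, against 9.91 and 10.09 with DMSO and 10.21 and 10.03 with H2O. In LNCaP SRPK1 read 10.06, 10.26 and 10.22 with dilazep, against 10.36 and 10.28 with DMSO and 10.57 and 10.53 with H2O. SRPK1 was 2.15-fold lower in LNCaP-abl (-1.10, SE 0.09, limma adjusted p = 7.3e-07) and 1.20-fold lower in LNCaP (-0.26, SE 0.09, adjusted p = 0.0311), and the responses differed by -0.84 (SE 0.12, adjusted p = 4.0e-04). The LNCaP fall was lost under 9 of 18 other settings, among them DMSO controls alone (-0.15). SRPK2 read 8.23, 8.19 and 8.05 with dilazep in LNCaP-abl, against 8.23 and 8.15 with DMSO and 8.26 and 8.17 with H2O. In LNCaP SRPK2 read 8.65, 8.42 and 8.26 with dilazep, against 8.63 and 8.23 with DMSO and 8.49 and 8.52 with H2O. It was not called in either line.

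CLK1, a nuclear kinase that releases SR proteins from speckles, read 10.65, 10.28 and 10.60 with dilazep in LNCaP-abl, against 10.15 and 9.63 with DMSO and 9.72 and 9.88 with H2O. In LNCaP CLK1 read 9.70, 9.53 and 9.56 with dilazep, against 9.55 and 9.66 with DMSO and 9.67 and 9.88 with H2O. CLK1 rose by 0.67 in LNCaP-abl (SE 0.13, limma adjusted p = 0.00134), its change in LNCaP was -0.09 (SE 0.13, adjusted p = 0.625), and the responses differed by 0.76 (SE 0.19, adjusted p = 0.0101). The second CLK1 probe rose by 0.49 in LNCaP-abl and fell by 0.77 in LNCaP. With median scaling the difference at the brighter probe was 0.46 and no longer called.

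CLK3 and CLK4 rose in both lines. CLK3 read 8.83, 8.81 and 8.84 with dilazep in LNCaP-abl, against 8.41 and 8.64 with DMSO and 8.61 and 8.39 with H2O. In LNCaP CLK3 read 8.64, 8.72 and 8.61 with dilazep, against 8.23 and 8.19 with DMSO and 8.15 and 8.22 with H2O. CLK3 was higher by 0.31 in LNCaP-abl (SE 0.09, limma adjusted p = 0.00985; 0.14 and not called with median scaling) and by 0.45 in LNCaP (SE 0.09, adjusted p = 0.00130; 0.13 and not called for the mean of its probes). CLK4, a related kinase of nuclear speckles, read 7.66, 7.70 and 7.41 with dilazep in LNCaP-abl, against 6.53 and 7.10 with DMSO and 7.17 and 6.81 with H2O. In LNCaP CLK4 read 7.90, 7.71 and 7.69 with dilazep, against 7.05 and 7.18 with DMSO and 7.26 and 7.36 with H2O. No dilazep array overlapped a control array for CLK3 or CLK4 in either line, and CLK4 was higher by 0.69 (SE 0.14, adjusted p = 0.00164) in LNCaP-abl and by 0.55 (SE 0.14, adjusted p = 0.00797) in LNCaP.

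An interaction, that is a different response in LNCaP-abl and LNCaP, was called for 23 of the 50 genes. Of these, 18 were lower in LNCaP-abl and 5 higher. Over all genes 33.8% were called, 17.9% as lower and 15.9% as higher. The median of the 50 genes was -0.21, against -0.02 over all genes. With median scaling the median over all genes was -0.22 and that of the 50 genes lay -0.23 from it, against -0.19 with quantile normalization. The share of all calls that were higher was then 22.7%, against 47.0%. HNRNPD, HNRNPF, SRPK1 and SRSF1 were called in the same direction under all 24 other settings, and the remaining 19 calls were lost under 1 or more of them.

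HNRNPD (AUF1), which binds AU-rich elements and steers mRNA decay, read 12.47, 12.47 and 12.48 with dilazep in LNCaP-abl, against 13.47 and 13.50 with DMSO and 13.53 and 13.40 with H2O. In LNCaP HNRNPD read 13.22, 13.24 and 13.19 with dilazep, against 13.51 and 13.41 with DMSO and 13.24 and 13.35 with H2O. HNRNPD fell by 1.00 in LNCaP-abl (SE 0.08, limma adjusted p = 4.4e-07), changed by -0.16 in LNCaP (SE 0.08, adjusted p = 0.114), and the responses differed by -0.84 (SE 0.11, adjusted p = 1.3e-04). Its second probe fell in both lines, by 1.06 in LNCaP-abl and by 0.65 in LNCaP. HNRNPF, a relative of HNRNPH1, read 7.55, 7.86 and 7.71 with dilazep in LNCaP-abl, against 8.19 and 8.43 with DMSO and 8.22 and 8.40 with H2O. In LNCaP HNRNPF read 8.09, 8.24 and 8.26 with dilazep, against 8.06 and 7.93 with DMSO and 8.13 and 8.16 with H2O. It fell in LNCaP-abl by 0.61 (SE 0.10, adjusted p = 3.7e-04), its LNCaP arrays overlap, and the responses differed by -0.74 (SE 0.15, adjusted p = 0.00258).

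HNRNPU and HNRNPH2 had the widest differences in size and are described for that reason. HNRNPU (SAF-A), a scaffold-attachment protein that binds chromatin and RNA, read 9.99, 9.74 and 10.00 with dilazep in LNCaP-abl, against 9.52 and 10.10 with DMSO and 10.19 and 9.79 with H2O. In LNCaP HNRNPU read 10.48, 10.92 and 11.61 with dilazep, against 9.87 and 9.20 with DMSO and 9.86 and 9.83 with H2O. HNRNPU was 2.48-fold higher with dilazep in LNCaP (1.31, SE 0.25, limma adjusted p = 0.00126), changed by 0.01 in LNCaP-abl (adjusted p = 0.974), and the responses differed by -1.30 (SE 0.35, adjusted p = 0.0150). Its second probe, listed against another transcript of the gene, moved otherwise: it fell by 1.18 in LNCaP-abl (SE 0.16) and changed by -0.35 in LNCaP (SE 0.16, adjusted p = 0.109 over all probes). The difference between the lines was lower in LNCaP-abl at both HNRNPU probes (-1.30 and -0.83).

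HNRNPH2, a G-tract binding relative of HNRNPH1, read 9.19, 9.36 and 9.08 with dilazep in LNCaP-abl, against 8.83 and 7.93 with DMSO and 8.26 and 8.58 with H2O. In LNCaP HNRNPH2 read 8.62, 8.19 and 8.08 with dilazep, against 8.44 and 8.63 with DMSO and 8.54 and 8.45 with H2O. HNRNPH2 rose by 0.81 in LNCaP-abl (SE 0.20, limma adjusted p = 0.00445), its LNCaP change was -0.22 (SE 0.20, adjusted p = 0.401), and the responses differed by 1.03 (SE 0.28, adjusted p = 0.0145). The second HNRNPH2 probe, of nearly the same brightness, was called neither in LNCaP-abl (0.39, SE 0.16, adjusted p = 0.058 over all probes) nor for the difference (0.54, SE 0.22, adjusted p = 0.082), so both HNRNPH2 calls rest on 1 of 2 probes.

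HNRNPDL, the relative of HNRNPD whose upstream sequence stands above, read 9.03, 9.14 and 9.10 with dilazep in LNCaP-abl, against 9.10 and 8.87 with DMSO and 8.80 and 9.09 with H2O. In LNCaP HNRNPDL read 9.49, 9.24 and 9.21 with dilazep, against 9.62 and 9.87 with DMSO and 9.91 and 9.81 with H2O. By this probe, listed against a non-coding transcript, HNRNPDL fell in LNCaP by 0.49 (SE 0.11, limma adjusted p = 0.00399), and the responses differed by 0.61 (SE 0.16, adjusted p = 0.0115). The other probe, listed against a coding transcript, read 8.75, 8.72 and 8.80 with dilazep in LNCaP, against 8.09 and 8.08 with DMSO and 7.93 and 8.01 with H2O. There HNRNPDL rose by 0.73 in LNCaP (SE 0.10, adjusted p = 1.2e-04 over all probes), with no overlap, and fell by 0.39 in LNCaP-abl (SE 0.10, adjusted p = 0.00581). The direction of HNRNPDL therefore depends on the probe in LNCaP. In LNCaP-abl the first probe changed by 0.12 (SE 0.11, limma adjusted p = 0.389), was not called and has arrays that overlap. HNRNPK, a poly(C)-binding protein, fell by 0.40 in LNCaP (adjusted p = 0.00513), changed by 0.07 in LNCaP-abl (adjusted p = 0.583) and differed by 0.47 between them (adjusted p = 0.0195). Of the other 3 HNRNPK probes, 2 were also lower in LNCaP alone, while the dimmest was higher in LNCaP-abl (0.73, adjusted p = 0.0124 over all probes) and changed by 0.32 in LNCaP (adjusted p = 0.241).

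**Figure D3:**
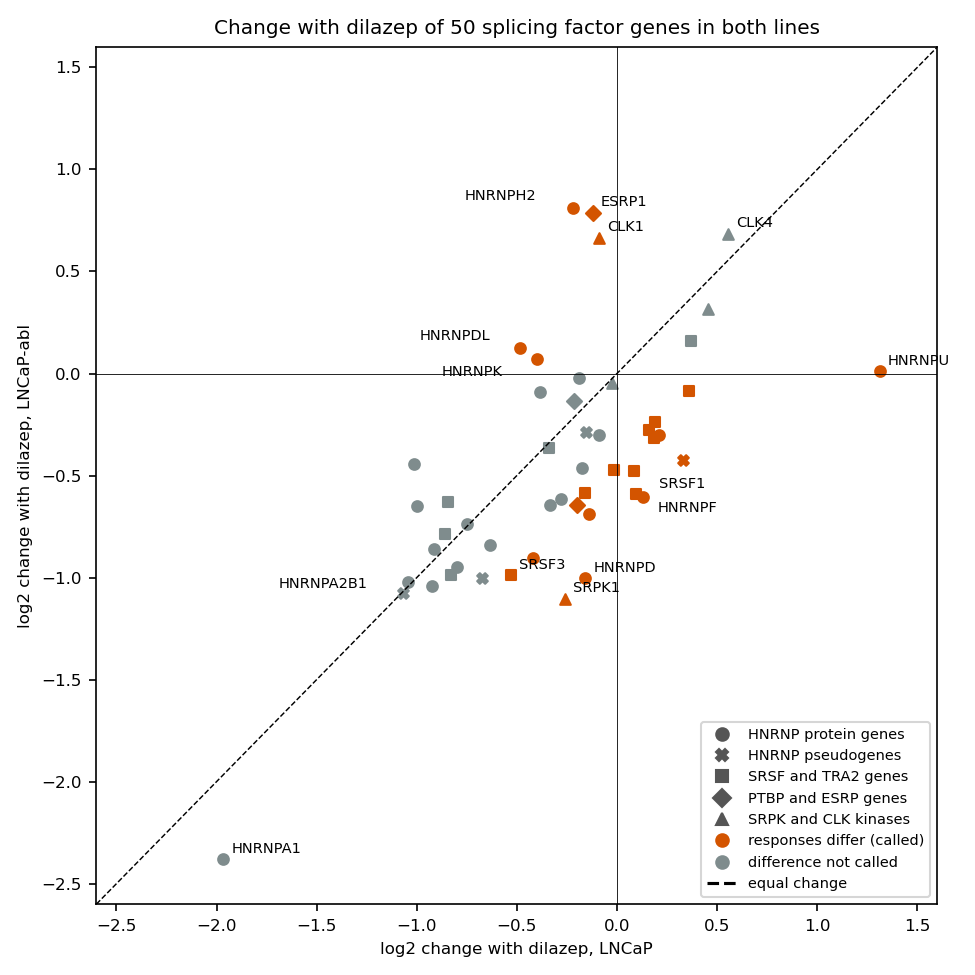
Log2 change with dilazep of the 50 genes in LNCaP-abl (y axis) and LNCaP (x axis), with a dashed line of equal change and orange for the 23 genes whose responses differed. Of the orange points 18 lie below the line, among them HNRNPD, SRSF1, SRPK1 and HNRNPU, and 5 lie above it.

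Probes of 1 gene often gave different calls. Of the 22 genes with several probes, all probes shared a call for 11 in LNCaP-abl, 8 in LNCaP and 14 for the difference of responses. Among all genes tested 3145 had several kept probes, and whether their probes share calls more or less often was not tested. Opposite calls were found for 0 of them in LNCaP-abl, and for 1, HNRNPDL, both in LNCaP and for the difference. All probes were called lower in both lines for HNRNPA1, HNRNPA1L2, HNRNPAB and HNRNPC. Counted over probes, 49 of 85 were lower and 8 higher in LNCaP-abl, where 48.1% of all 15931 probes tested were called, and 37 were lower and 6 higher in LNCaP, where 43.2% were.

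**Figure D4:**
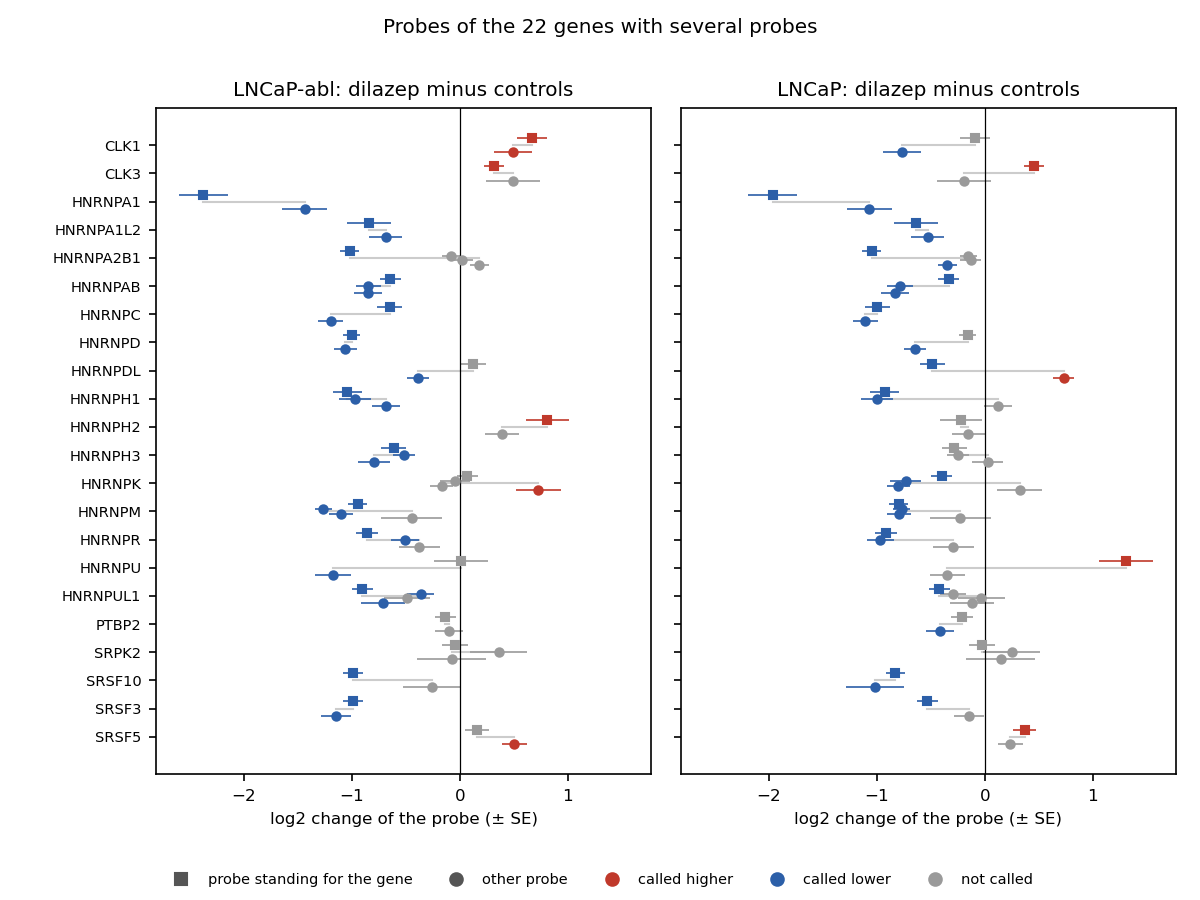
Log2 change with dilazep (x axis, with standard errors) of every probe of the 22 genes with several probes, in LNCaP-abl (left) and LNCaP (right), with a square for the probe that stands for the gene and circles for the others. The probes of HNRNPA1, HNRNPAB and HNRNPC are all lower in both lines, while those of HNRNPDL and HNRNPU lie apart.

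Between the lines without dilazep, 12 of the 50 genes were higher in LNCaP-abl controls and 8 lower than in LNCaP controls, where 25.1% of all genes were higher and 23.9% lower (49.0% called). The median was 0.02, against 0.00 over all genes, and the arrays of 19 genes did not overlap (45.5% of all genes). SRSF8 was higher by 0.73 in LNCaP-abl (SE 0.09, limma adjusted p = 4.6e-05) and HNRNPAB by 0.54 (SE 0.09, adjusted p = 3.3e-04). HNRNPDL was lower by 0.84 (SE 0.10, adjusted p = 3.2e-05), but its other probe was called higher by 0.29. SRSF12 was at least 1.34-fold higher in LNCaP-abl. By group means ESRP1 was at least 1.21-fold lower there, but it was detected on only 3 of 4 LNCaP control arrays, and the arrays of the lines overlap. HNRNPA1P33 and HNRNPA1P10 were lower by 0.99 and 0.70.

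With dilazep in both lines, 8 genes were higher and 22 lower in LNCaP-abl than in LNCaP, where 25.8% of all genes were higher and 28.8% lower (54.6% called), and the arrays of 37 did not overlap (62.2% of all genes). The median was -0.20, against -0.03 over all genes. With median scaling the median over all genes was -0.21 and the 50 genes lay -0.25 from it, against -0.17 with quantile normalization, and 29.9% of all calls were higher, against 47.2%. SRPK1 was lower by 1.22 (SE 0.09, limma adjusted p = 5.0e-07), SRSF7 by 0.94 and HNRNPA0 by 0.91 (SE 0.12 and 0.11). SRSF8 was higher by 0.94 (SE 0.11, adjusted p = 1.4e-05) and CLK1 by 0.92 (SE 0.14, adjusted p = 1.9e-04).

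Other genes of the splicing machinery gave a setting for these counts. Of 59 measured core spliceosome genes, 37 fell and 5 rose with dilazep in LNCaP-abl (median -0.45). Of all genes, 23.3% fell and 27.2% rose there. In LNCaP 22 of the 59 fell and 4 rose (median -0.13), against 19.7% and 24.2% of all genes. The falls with the smallest p in LNCaP-abl were LSM2 (-1.46), LSM3 (-1.82) and LSM4 (-1.11), subunits of the LSM rings that bind U6 RNA or start mRNA decay, and the rises were SNRPN (0.78), SLU7 (0.35) and DHX16 (0.42). In LNCaP they were LSM5 (-0.83), SNRPA1 (-0.76) and LSM3 (-1.03), and SNRPN (0.50), DHX16 (0.45) and SNRNP25 (0.34) rose. The interaction test called 33.8% of all genes, 17.9% as lower and 15.9% as higher in LNCaP-abl. The responses differed for 19 of the 59, 17 of them lower in LNCaP-abl. LSM8 (-1.53), LSM2 (-1.09) and PRPF4 (-1.13) led these, and SF3B6 (0.65) and PLRG1 (0.52) were the 2 that were higher.

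Of 48 other splicing regulators, 22 fell and 6 rose in LNCaP-abl (median -0.27), against 23.3% and 27.2% of all genes. In LNCaP 8 fell and 9 rose (median -0.02), against 19.7% and 24.2% of all genes. MBNL1 and CELF1, which oppose each other on many developmental exons, fell in both lines, by 1.05 and 1.04 in LNCaP-abl and by 0.97 and 0.90 in LNCaP. PNN fell by 0.99 in LNCaP-abl, where MBNL2 (1.06), NOVA1 (0.86) and KHDRBS3 (0.74) rose. RBM4 fell by 0.85 in LNCaP, where RBM17 (0.90), LUC7L (0.63) and RBM5 (0.42) rose. The responses differed for 15 of the 48, with 12 lower in LNCaP-abl and 3 higher. RBM17 (-1.18), ELAVL1 (-1.14) and EWSR1 (-0.68) led the lower ones, and RBM4 (1.04), MBNL2 (0.79) and RBM47 (0.59) were higher. The share of all genes whose responses differed was 33.8%, with 17.9% lower in LNCaP-abl and 15.9% higher.

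Proliferation markers moved with these changes. Of 10 proliferation markers, 10 fell with dilazep in LNCaP-abl (median -3.41) and 9 in LNCaP (median -1.04). The responses of 9 markers differed, all lower in LNCaP-abl. Of all genes, 23.3% fell in LNCaP-abl and 19.7% in LNCaP, and 17.9% had a lower response in LNCaP-abl. The part of these markers in the changes of the splicing factor genes was not tested.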

How the data were processed

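Total RNA of 14 samples was read on Illumina BeadChip arrays. The authors deposited, per the file headers, an unlogged intensity of each probe with its detection p-value, and neither background subtraction nor scaling shows in the values. They also deposited processed values of 22912 probes close to log2 units, with low signals compressed. The submitters' processing notes name lumi, without a version, and the exact transform is not given in the sources used here. Columns were matched to samples by title, since a line of sample numbers in the header differs from some descriptions.

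Intensities were corrected and quantile-normalized with neqc (offset 16) of limma 3.58.1 in R 4.3.3. Probes with a detection p under 0.05 on at least 2 arrays were kept, which left 24894 of 47323, and 8963 of these had no single symbol and were not tested. Of the 22912 probes, 16501 had 1 symbol in the platform annotation, 5 several and 6406 none here. Each of 11983 genes stood by its brightest kept probe. A linear model with 6 group means and empirical Bayes moderation (limma, residual degrees of freedom 8, all 14 arrays) gave every comparison, two-sided, with Benjamini-Hochberg adjustment over all genes and calls at 0.05. Probe values come from the same model over all 15931 named kept probes. The number of arrays limits the precision. No label names a chip or run. Folds given as "at least" compare the mean of the detected group with the higher of the weakest detected level and the gene's own level on each array of the other.

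Per-array values are given for the called genes with the smallest p in the dilazep and response comparisons, up to 8 each, and for all PTB, ESRP, SRPK and CLK genes. HNRNPU, HNRNPH2 and the second HNRNPDL probe were added after their values were seen. From the lists of core spliceosome genes (62), other splicing regulators (52) and proliferation markers (10), up to 3 called genes per direction are named. Genes and lists were chosen with earlier results of these data known. Same-numbered arrays of a line did not deviate together (correlations of -0.18 to 0.05 over 8 pairs), so numbers were not treated as pairs. The code of the model was run on simulated data with independent noise, which cannot show effects of culture, chip or a separate control experiment. Alternatives covered scaling, background correction, the authors' values, detection filters, probe choice, vehicle, line, replicate block and each array left out.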

Additional observations from a re-analysis of the deposited data

Results flagged for a closer look

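Values are listed where a single array stood far from the others of its group (gap to its neighbour over the group's range, above Dixon's critical value), or where the response to dilazep differed between LNCaP-abl and LNCaP in limma's interaction test.

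Among 100 groups of 4 control arrays, 2 held such an array, and chance marks about 1 in 20. Both were the LNCaP DMSO array numbered 3: HNRNPU read 9.2 there, below the other LNCaP controls, and TRA2B read 11.44, above them. Without that array, the HNRNPU rise with dilazep in LNCaP remained called.

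The responses differed for 23 of the 50 genes, against 33.8% of all genes. The difference (LNCaP-abl minus LNCaP, log2) was positive for HNRNPH2 (1.03), CLK1 (0.76), HNRNPDL (0.61) and HNRNPK (0.47). At its other probe HNRNPDL had the opposite sign (-1.12, limma adjusted p = 1.3e-04 over all probes). The second HNRNPH2 probe was not called (0.54), while both CLK1 probes and 3 of 4 HNRNPK probes were called higher. Among HNRNP genes it was negative for HNRNPU (-1.3), HNRNPD (-0.84), the pseudogene HNRNPKP3 (-0.76), HNRNPF (-0.74), HNRNPA0 (-0.55), HNRNPUL2 (-0.51) and HNRNPUL1 (-0.48). Among SRSF and TRA2 genes it was negative for SRSF1 (-0.69), TRA2B (-0.56), SRSF7 (-0.5), SRSF3 (-0.46), SRSF6 (-0.45), SRSF11 (-0.44), SRSF4 (-0.43) and SRSF2 (-0.42). It was also negative for SRPK1 (-0.84) and PTBP1 (-0.44). The fitted differences of ESRP1 (0.91) and SRSF12 (-0.45) were called too, but ESRP1 was detected on 0 of 4 LNCaP-abl control arrays and SRSF12 on 0 of 7 LNCaP arrays, so these values give no size of the difference.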

How the results depend on the processing

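The calls in LNCaP-abl changed least with the processing: 30 of 37 genes were called under all 18 alternatives, against 16 of 26 in LNCaP (18 alternatives), 4 of 23 for the response difference (24), 5 of 20 between control groups (18) and 14 of 30 between dilazep groups (14). The median change in LNCaP-abl was -0.67 with median scaling, -0.35 without background correction, -0.31 with the authors' values, -0.53 with H2O and -0.58 with DMSO controls alone, and -0.59 to -0.44 with single arrays left out. In LNCaP it was -0.12 with median scaling, -0.16 without background correction and -0.15 with the authors' values. For the response difference it was -0.45 with median scaling, -0.13 without background correction, -0.10 with the authors' values, -0.15 with H2O controls alone and -0.23 to -0.16 with single arrays left out. Between dilazep groups it was -0.46 with median scaling and -0.15 with the authors' values, and DMSO minus H2O was -0.060 with median scaling. Genes with a higher response difference numbered 2 with median scaling, 3 with H2O and 3 with DMSO controls alone, and 10 were lower with DMSO alone. Between control groups 7 were higher with H2O alone, and 5 were higher and 5 lower with DMSO alone. With single arrays left out, 7 to 12 were higher between control groups (7 without the LNCaP H2O array numbered 3). Between dilazep groups 4 were higher with median scaling. With replicate number as a block within line, which leaves 3 residual degrees of freedom, 2 genes were higher in LNCaP (3237 called over all genes), 0 higher and 4 lower for the response difference (2302), 4 higher and 2 lower between control groups (median 0.076, 2678 called over all genes), and 3 higher and 12 lower between dilazep groups (4050). With the mean of the kept probes, HNRNPDL changed by 0.12 in LNCaP and -0.25 in the response difference, and HNRNPU by -0.58 in LNCaP-abl, since their probes disagree. Where no construction is named, the cause was not tested. Levels near background, as for ESRP1 and SRSF12, are bounds only.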
